A study of Mus musculus with 9 samples.

Results

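The genes described here are 33 genes of cholesterol and fatty acid synthesis and efflux, measured in microglia sorted from mouse brain. They were chosen by gene symbol from a list of 5 roles: 17 enzymes of sterol synthesis, 5 genes of SREBP processing, 2 of sterol transport and esterification, 5 of the LXR pathway and efflux, and 4 of fatty acid synthesis and phospholipid remodelling. All 33 were among the 23238 gene symbols counted, each on a single entry, and all 33 passed the filter on low counts that left 12292 genes for testing.

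Microglia make cholesterol from acetyl-CoA through the mevalonate and squalene steps, and they also take it up with the debris and myelin that they engulf. The transcription factors SREBP1 and SREBP2 turn on the synthesis enzymes when membrane sterol is low, whereas INSIG proteins hold their escort SCAP in the endoplasmic reticulum when it is high. Surplus sterol is esterified for storage in lipid droplets, or is exported by ABC transporters whose genes are switched on by the oxysterol-sensing LXR receptors.

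Wild-type female C57BL/6N mice, 12 weeks old, were used in every group. Normal mice were untreated. NMO mice were injected into the striatum of one hemisphere with IgG from patients with neuromyelitis optica, an autoimmune disease in which antibodies attack aquaporin-4 on astrocytes, together with human complement. NMO+CL mice were also given clodronate liposomes, which deplete blood monocytes and macrophages, into the peritoneum 6 h before that injection. Brains were taken on day 1, myelin was removed, and cells positive for CD45, CD11b and P2ry12 were sorted. Each of the 3 libraries of a group came from a pool of 3 mice. Injection, antibody and complement cannot be told apart in NMO against Normal, nor clodronate from the liposome that carried it in NMO+CL against NMO, since mice given control IgG or empty liposomes were not analysed here.

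The libraries held 5788234 to 7837219 read counts from the 3′ ends of polyadenylated transcripts, and 16.0% to 31.0% of these fell on the ribosomal RNA entry Rn45s. NMO replicate 2 stood apart in that 21 genes had 0 counts there but at least 10 counts per 1000000 (CPM) in each of the other 8 libraries. No other library had such a gene. The 8 microglia markers together made up 28062 to 37154 CPM in the Normal and NMO libraries and 19319 to 26917 CPM in the NMO+CL libraries. P2ry12, the marker used in the sort, was at 2055 to 2665 CPM in Normal, 1558 to 1756 CPM in NMO and 266 to 449 CPM in NMO+CL, and it was called lower in NMO+CL against NMO (log2 fold change -2.22, adjusted p = 1.73e-05). Neutrophil markers summed to 510, 36.9 and 42.6 CPM in Normal, to 244, 95.2 and 361 CPM in NMO, and to 1261, 258 and 487 CPM in NMO+CL. Of the 6 neutrophil and 6 monocyte markers 1 was called in any comparison, the monocyte gene Fn1, at 1.18 to 6.47 CPM in Normal and 16.3 to 29.2 CPM in NMO+CL. Monocyte markers summed to 24.5 to 55.6 CPM in Normal, 36.5 to 70.9 CPM in NMO and 39.4 to 94.4 CPM in NMO+CL. Most of the sum in each NMO+CL library was Fn1 and Chil3, and the monocyte markers did not move together. In NMO+CL against NMO the log2 fold changes were 1.79 for Fn1 and 1.58 for Chil3. They were -1.44 for Ccr2, -1.24 for Plac8, -1.31 for Vcan and -0.25 for Ly6c2. Against Normal, Ccr2, Plac8 and Vcan were again lower, and Fn1, Chil3 and Ly6c2 were higher. Lymphocyte markers summed to at most 20.2 CPM, with Cd3e at 0 in all libraries. In sorted pools a lower value from fewer cells of a type and one from less RNA per cell cannot be told apart.

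Library sizes behind the CPM values were scaled with TMM factors (a trimmed mean of log ratios between libraries), and the errors given are standard deviations over 3 libraries. A gene was called when edgeR's quasi-likelihood test gave a Benjamini-Hochberg adjusted p under 0.05 over all 12292 genes. Depth differed widely among the members: 13 had at least 100 counts in every library, 20 had fewer in at least 1 library, and 3 of these (Idi1, Stard4 and Nr1h3) had 0 counts in at least 1 library.

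NMO was set against Normal to ask how these genes stood on day 1 after injection. No member was called by edgeR, DESeq2 or limma-voom, while edgeR called 0.472% of all genes higher and 0.0244% lower. At an unadjusted p under 0.05 there was 1 member, which is 3.03% of them against 9.51% of all genes. In 3 members (9.09%) the libraries of both groups did not overlap, against 17.4% of all genes. The median log2 fold change of the members was 0.002, and that of all genes was -0.01.

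NMO+CL was set against NMO to ask whether these genes differed once monocytes had been depleted. A single member, the esterification gene Soat1, was called higher, which is 3.03% of the members against 0.529% of all genes, and no member was called lower, against 1.07% of all genes. An unadjusted p under 0.05 was found for 5 members (15.2%, against 12.4% of all genes), and 6 did not overlap between the groups (18.2%, against 17.1%). In NMO+CL against Normal, Soat1 and the fatty acid synthase gene Fasn were called higher (6.06% of the members, against 4.79% of all genes), and the efflux gene Abcg1 was called lower (3.03%, against 4.43%). Here 6 members had an unadjusted p under 0.05 (18.2%, against 22.3%) and 5 did not overlap (15.2%, against 28.7%). The medians of the members were 0.06 and -0.01 in these 2 comparisons, and those of all genes were -0.01 in both. The shares of the list were thus near those of all genes or below them, apart from the single call in NMO+CL against NMO, and the results lie with single genes. The 3 comparisons share libraries pairwise and are not independent of each other.

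**Figure D1:**
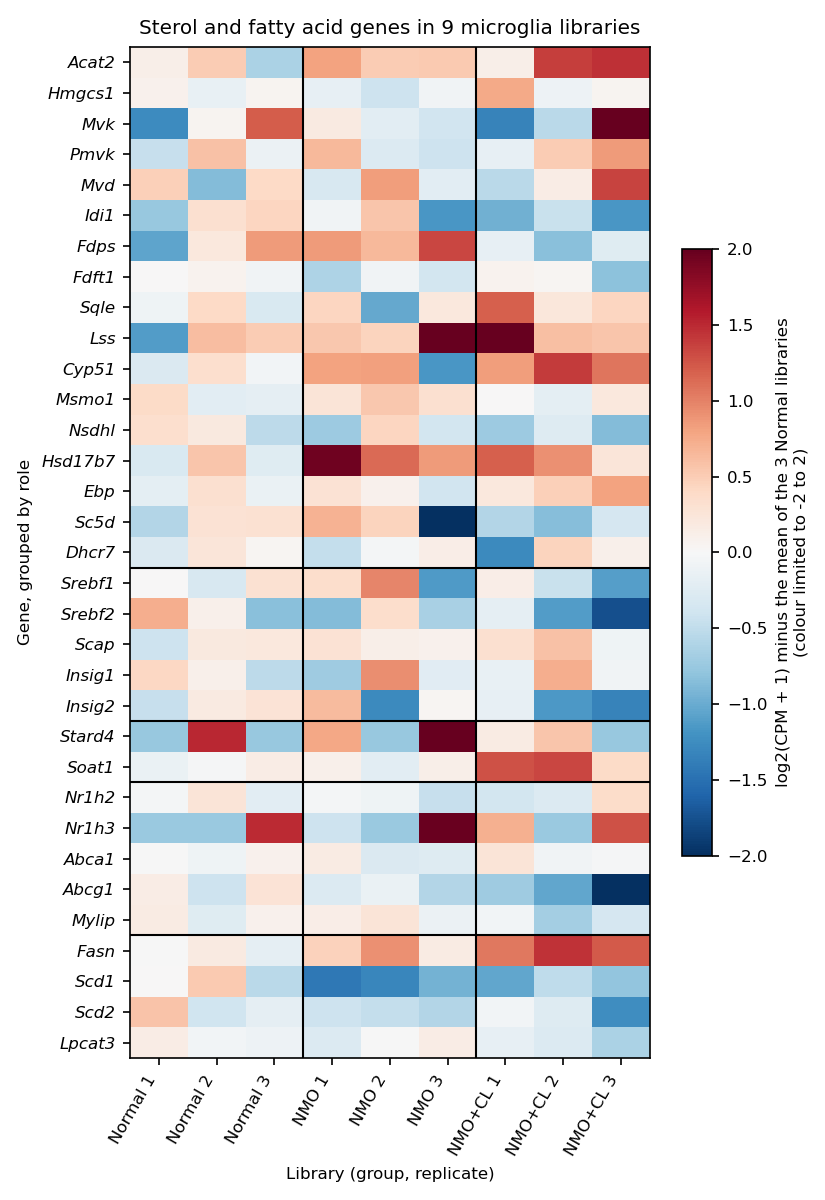
Each row is a member gene, grouped by role, and each column is 1 of the 9 libraries. The colour is log2(CPM + 1) minus the mean of the 3 Normal libraries, limited to -2 to 2. Fasn and Soat1 are red in all 3 NMO+CL libraries and Abcg1 is blue in all 3, and no other row holds a called gene.

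Soat1 encodes the enzyme that joins cholesterol to a fatty acid so that it can be stored in lipid droplets. The gene lies on chromosome 1 (GRCm38, 156424525 to 156474331, minus strand). It was at 82.7, 89.4 and 99.9 CPM in the Normal libraries, at 97.3, 77.6 and 98.6 CPM in the NMO libraries, and at 221, 230 and 118 CPM in the NMO+CL libraries. Every NMO+CL library was above all 6 others, although replicate 3 was close to them. The group means were 90.7 ± 8.69, 91.2 ± 11.8 and 190 ± 62.1 CPM (SD, n = 3).

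The log2 fold change of Soat1 was 0.01 in NMO against Normal (standard error 0.24, adjusted p = 0.997 by edgeR), with a 95% interval from -0.50 to 0.52. Relative to NMO, the NMO+CL value was 1.06 (standard error 0.24, adjusted p = 0.0352), higher in 3 of 3 libraries. Relative to Normal it was also 1.06 (standard error 0.24, adjusted p = 0.0095). The call relative to NMO was close to the threshold: it was made in 6 of 17 alternative settings, with adjusted p from 8.10e-04 to 0.203, and it was lost without NMO+CL replicate 1 (0.0870) or 2 (0.203), without any single Normal or NMO library (0.0510 to 0.110), with only the 2 groups compared (0.103), with library totals in place of TMM (0.0508) and with the replicate block (0.0513). The call against Normal was made in 16 of 17, lost without NMO+CL replicate 2 (0.0620). The direction was the same in all 17 settings of both comparisons. Without NMO replicate 2, the library that stood apart, the log2 fold change relative to NMO was 0.95 (adjusted p = 0.110).

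Fasn encodes the enzyme that builds palmitate from malonyl-CoA. It lies on chromosome 11 (GRCm38, 120805846 to 120824547, minus strand). Its values were 25.3, 28.7 and 22.4 CPM in Normal, 35.3, 48.5 and 28.5 CPM in NMO, and 53.8, 70.6 and 60.7 CPM in NMO+CL. The NMO+CL libraries were above all others, and the NMO libraries lay between, with NMO replicate 3 just below the highest Normal library. The means were 25.5 ± 3.19, 37.4 ± 10.2 and 61.7 ± 8.44 CPM (SD, n = 3).

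The log2 fold change of Fasn was 1.27 in NMO+CL against Normal (standard error 0.29, adjusted p = 0.0082 by edgeR), higher in 3 of 3 libraries. In NMO against Normal it was 0.56 (standard error 0.28, adjusted p = 0.583), and in NMO+CL against NMO it was 0.72 (standard error 0.28, adjusted p = 0.268), neither of which passed the test. The call against Normal was made in 15 of 17 settings. It was lost without Normal replicate 3 (0.0501) and without NMO+CL replicate 2 (0.0512).

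Abcg1 encodes a transporter that moves cholesterol to high-density lipoprotein. It lies on chromosome 17 (GRCm38, 31057675 to 31117988, plus strand). It was at 125, 84.7 and 137 CPM in Normal, at 93.5, 103 and 74.8 CPM in NMO, and at 69.0, 54.4 and 25.8 CPM in NMO+CL. The NMO+CL libraries lay below all others, and the Normal and NMO libraries overlapped. The means were 116 ± 27.3, 90.4 ± 14.3 and 49.7 ± 22.0 CPM (SD, n = 3).

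The log2 fold change of Abcg1 was -1.21 in NMO+CL against Normal (standard error 0.31, adjusted p = 0.0171 by edgeR), lower in 3 of 3 libraries, and -0.35 in NMO against Normal (standard error 0.30, adjusted p = 0.828). Between NMO+CL and NMO it was -0.86 (standard error 0.30, adjusted p = 0.204), which passed the test only when no filter on low counts was used (0.0281). The call against Normal was made in 15 of 17 settings and was lost without Normal replicate 1 (0.0650) or 3 (0.0852). A stretch of 79 bases at the 3′ end of Abcg1 matched another counted gene, 1700016L21Rik, at 96.2% identity, so part of its count is uncertain.

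**Figure D2:**
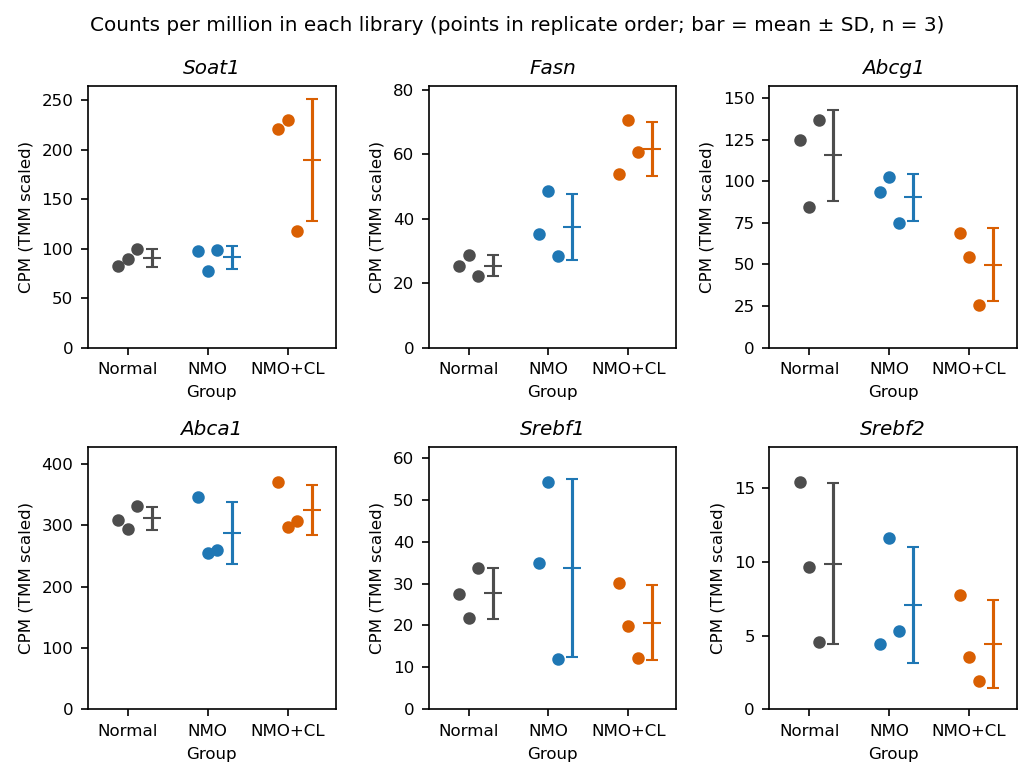
CPM (vertical axis, from 0) of 6 members in each library, grouped along the horizontal axis as Normal, NMO and NMO+CL. Points are single libraries and bars are the mean ± SD of 3. Soat1 and Fasn are highest and Abcg1 is lowest in the NMO+CL libraries, and the groups overlap for Abca1, Srebf1 and Srebf2.

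The bases before the starts of Soat1 and Fasn, the 2 members called higher, are shown for their CCAAT boxes, which bind NF-Y, a factor that acts beside SREBP at many sterol genes. Each is the 250 bases before the annotated start in RefSeq on GRCm38.p6, with every CCAAT, read on either strand, in capitals (ATTGG is the same motif on the other strand).
Soat1, chr1:156474329-156474578, minus strand: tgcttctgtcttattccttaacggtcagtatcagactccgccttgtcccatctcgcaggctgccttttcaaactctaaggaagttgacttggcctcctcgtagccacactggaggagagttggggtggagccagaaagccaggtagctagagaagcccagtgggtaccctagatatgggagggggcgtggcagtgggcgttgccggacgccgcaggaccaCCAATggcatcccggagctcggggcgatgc
Fasn, chr11:120824548-120824797, minus strand: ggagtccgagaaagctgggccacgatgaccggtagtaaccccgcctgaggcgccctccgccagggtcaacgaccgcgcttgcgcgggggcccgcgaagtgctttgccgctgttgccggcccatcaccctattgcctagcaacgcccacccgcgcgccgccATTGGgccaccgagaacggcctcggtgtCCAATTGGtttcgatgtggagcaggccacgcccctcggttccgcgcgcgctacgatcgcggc

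The window of Soat1 held 1 CCAAT and that of Fasn held 3, of which a pair overlap on opposite strands. Neither stretch of 250 bases held the GC box GGGCGG, the E box CACGTG, or the string CACCCCAC from a classical sterol response element, nor a pair of AGGTCA repeats spaced by 4 bases, the form that LXR binds. A GGGCGG lay in the 50 bases after the start of Soat1. RefSeq gave a window for 26 members, and for the shares that follow it also held the 50 bases after the start. CCAAT was in 80.8% of these, against 42.7% of the tested genes with a window and 41.1% of all 27025 genes with one. GGGCGG was in 84.6% of the members, against 67.9% and 38.2%. CACGTG was in 23.1%, against 11.8% and 8.09%, CACCCCAC was in 7.69%, against 3.77% and 3.3%, and the AGGTCA pair was in 0% of members and tested genes and in 0.0148% of all genes. These are matches of letters in a short window, and a motif that is missing from it may lie elsewhere.

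With all libraries and the filter on low counts, none of the 17 enzymes of sterol synthesis was called in any comparison by edgeR, DESeq2 or limma-voom. An unadjusted p under 0.05 was found for 1 of the 17 in NMO against Normal, for 1 when NMO+CL was set beside NMO, and for 3 when it was set beside Normal (5.88%, 5.88% and 17.6%), where the shares of all genes were 9.51%, 12.4% and 22.3%. Their median log2 fold change was 0.00 for NMO relative to Normal, 0.15 for NMO+CL relative to NMO and 0.44 for NMO+CL relative to Normal, beside medians of -0.01 for all genes in each. Of the 17, 10 had a log2 fold change above 0 and 7 below 0 in NMO+CL against Normal, where 49.4% of all genes had one above 0.

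The summed CPM of the 17 enzymes was 348, 418 and 350 in the Normal libraries, 408, 399 and 331 in the NMO libraries, and 435, 461 and 498 in the NMO+CL libraries. Each NMO+CL library was thus above the 6 others, and the Normal and NMO libraries overlapped. Taken singly, 1 of the 17 enzymes (5.88%) did not overlap between NMO+CL and Normal, against 28.7% of all genes. Between NMO+CL and NMO 3 did not overlap (17.6%, against 17.1%), 1 of them higher and 2 lower. Ebp, the sterol isomerase, made up 27.2% to 41.7% of each sum. It was at 104, 148 and 108 CPM in Normal, 144, 126 and 90.0 CPM in NMO, and 137, 164 and 208 CPM in NMO+CL. Without Ebp the sum was 243 to 270 CPM in Normal, 241 to 273 CPM in NMO and 290 to 298 CPM in NMO+CL.

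Ebp alone had a log2 fold change of 0.50 relative to NMO (adjusted p = 0.393 by edgeR) and of 0.50 relative to Normal (adjusted p = 0.215), and in both its libraries overlapped. The 3′ ends of 4 enzymes in the sum are shared in part with other counted genes. All 500 last bases of Fdft1, the squalene synthase gene, overlap Ctsb on the opposite strand and 166 bases of Cyp51 overlap Akap9 in the same way, so that their reads cannot be told apart if strand was not used. By sequence, 353 bases of Acat2 match Acat3 and Tcp1 at up to 98.6% identity, and 109 bases of Lss match 4930483K19Rik at 99.1%. Without these 4 genes the sum was 233 to 285 CPM in Normal, 219 to 297 CPM in NMO and 290 to 368 CPM in NMO+CL, so that the NMO and NMO+CL libraries overlapped. Both reduced sums were chosen after the data were seen.

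At the head of the pathway, Acat2, which joins 2 molecules of acetyl-CoA, was at 13.5 to 30.9 CPM in Normal, 30.6 to 38.1 CPM in NMO and 23.2 to 60.5 CPM in NMO+CL. Its log2 fold change in NMO+CL against Normal was 1.06 (standard error 0.38, adjusted p = 0.0979 by edgeR), and NMO+CL replicate 1 lay within the Normal range. It was called higher without that library and with no filter on low counts, and in none of the other 15 settings. Hmgcs1, which makes HMG-CoA, was at 40.5 to 48.0, 33.5 to 42.9 and 42.0 to 76.5 CPM in the same order, and its largest log2 fold change was 0.50, in NMO+CL against NMO (adjusted p = 0.499). The NMO+CL values of Hmgcs1 were led by replicate 1, the library in which Acat2 was lowest.

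The kinases Mvk and Pmvk and the decarboxylase Mvd, which turn mevalonate into the isoprene unit, were at 1.17 to 21.1 CPM over the 9 libraries. Mvk was at 21.1 CPM in NMO+CL replicate 3 and at 1.17 and 2.75 CPM in the other 2 libraries of that group. Idi1, the isomerase of that unit, had 2, 12 and 12 counts in Normal, 9, 19 and 0 in NMO, and 1, 4 and 0 in NMO+CL, and no difference was detected from these few counts. The 3′ ends of Idi1 and Fdps also match 2 and 6 genes that were not counted. Fdps, the farnesyl diphosphate synthase gene, was at 1.12 to 6.9 CPM in Normal, at 6.91, 5.87 and 10.1 CPM in NMO, and at 2.92, 1.46 and 2.72 CPM in NMO+CL. The NMO and NMO+CL values of Fdps did not overlap, but the log2 fold change of -1.68 did not pass the test (standard error 0.94, adjusted p = 0.496 by edgeR).

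Of the squalene steps, Fdft1 was at 79.1 to 87.4 CPM in Normal, 54.1 to 79.8 CPM in NMO and 46.8 to 87.8 CPM in NMO+CL. Sqle, the squalene epoxidase gene that is often rate-limiting in this branch, was at 6.73 to 11.6, 3.71 to 11.8 and 10.2 to 20.9 CPM. Lss, the lanosterol synthase gene, was at 0.478 to 3.91, 3.35 to 12.5 and 3.68 to 13.4 CPM, with single high values in NMO replicate 3 and NMO+CL replicate 1. Log2 fold changes in NMO+CL against Normal were -0.18 for Fdft1 (adjusted p = 0.781 by edgeR), 0.71 for Sqle (0.556) and 1.40 for Lss (0.460).

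Cyp51, which removes a methyl group from lanosterol, was at 6.69, 10.8 and 8.08 CPM in Normal, at 15.5, 15.6 and 3.20 CPM in NMO, and at 15.8, 23.7 and 18.7 CPM in NMO+CL. All 3 NMO+CL libraries were above the 6 others, and NMO replicate 3 was the lowest library of all. The log2 fold change was 1.18 in NMO+CL against Normal (standard error 0.55, 95% interval 0.02 to 2.34, adjusted p = 0.217 by edgeR), and it was called in 0 of 17 alternative settings. Between NMO+CL and NMO it was 0.76 (standard error 0.54, adjusted p = 0.631).

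Hsd17b7, a reductase of sterol demethylation, was the member with an unadjusted p under 0.05 in NMO against Normal. It was at 2.55, 5.42 and 2.69 CPM in Normal, 15.8, 8.62 and 6.88 CPM in NMO, and 9.05, 7.29 and 4.16 CPM in NMO+CL. The NMO libraries were all above the Normal ones, and the NMO+CL libraries overlapped both. Its log2 fold change was 1.55 in NMO against Normal (standard error 0.71, adjusted p = 0.504 by edgeR), and it was called in 0 of 17 alternative settings.

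None of the later steps passed the test. Msmo1 and Nsdhl, which act beside Hsd17b7, were at 19.7 to 33.6 CPM and at 5.6 to 15.3 CPM over the 9 libraries. Sc5d, the desaturase gene, ranged from 1.28 to 18.5 CPM within the NMO group alone, and Dhcr7, which makes the last reduction to cholesterol, was at 3.21 to 12.8 CPM. The lowest adjusted p of these 4 genes over the 3 comparisons was 0.554, for Nsdhl in NMO+CL against Normal (log2 fold change -0.71, standard error 0.57).

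**Figure D3:**
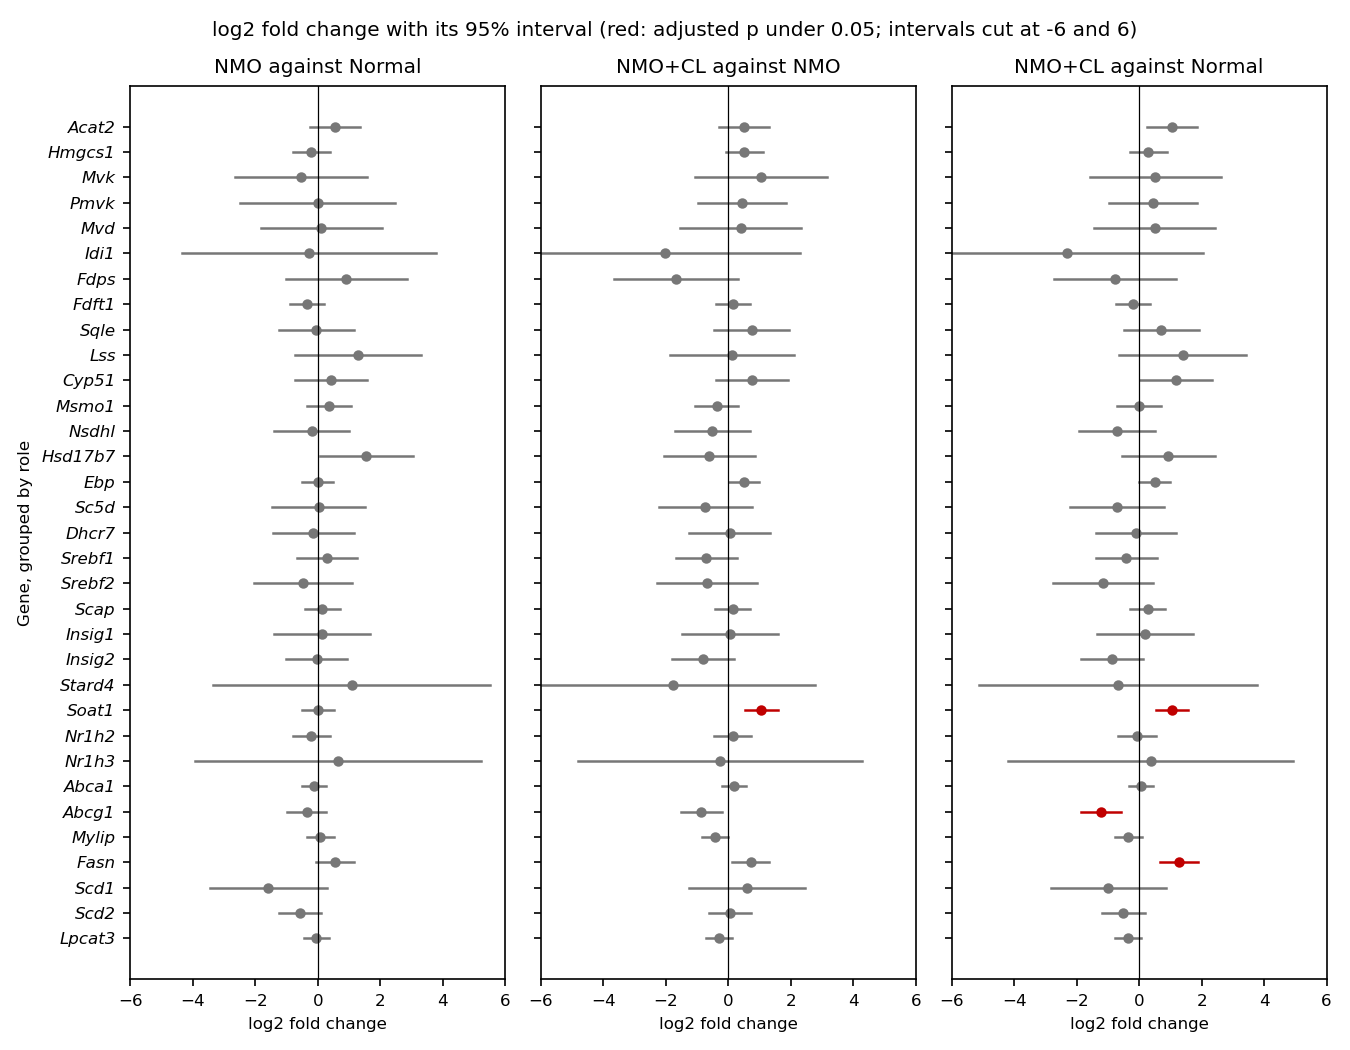
Log2 fold change of each member (horizontal axis) with its 95% interval in the 3 comparisons, in red where the adjusted p was under 0.05 and in grey elsewhere. Intervals that ran past -6 or 6 are cut there. Soat1 is red in both comparisons of NMO+CL, Fasn and Abcg1 are red in NMO+CL against Normal, and the intervals of Idi1, Stard4 and Nr1h3 are the widest.

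None of the 5 genes of SREBP processing was called. Srebf1, which encodes SREBP1, was at 27.4, 21.7 and 33.8 CPM in Normal, 34.8, 54.3 and 11.8 CPM in NMO, and 30.1, 19.8 and 12.2 CPM in NMO+CL. The lowest and the highest of the 9 libraries were both NMO libraries, so the spread within that group covered the others. Its log2 fold change was 0.29 in NMO against Normal (standard error 0.46, adjusted p = 0.949 by edgeR), and it was -0.25 without NMO replicate 2. Between NMO+CL and NMO it was -0.71 (standard error 0.46, adjusted p = 0.586). The 3′ end of Srebf1 overlaps 109 bases of Rai1 on the opposite strand.

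Srebf2, whose product SREBP2 acts mainly on cholesterol genes, was at 15.5, 9.63 and 4.54 CPM in Normal, 4.40, 11.6 and 5.28 CPM in NMO, and 7.73, 3.56 and 1.92 CPM in NMO+CL. The groups overlapped in each comparison. The log2 fold change in NMO+CL against Normal was -1.16 (standard error 0.76, adjusted p = 0.423 by edgeR), with a 95% interval from -2.75 to 0.44. It was -1.84 without NMO+CL replicate 1 and -0.68 without Normal replicate 1.

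Scap, the escort gene, was at 35.7 to 72.4 CPM over the 9 libraries with a largest log2 fold change of 0.28 (NMO+CL against Normal, adjusted p = 0.644 by edgeR). Insig1, itself a target of SREBP, was at 3.27 to 12.3 CPM, with log2 fold changes between 0.05 and 0.20. Insig2 was at 20.6 to 35.0 CPM in Normal, 11.3 to 45.1 CPM in NMO and 10.7 to 25.5 CPM in NMO+CL, with a log2 fold change of -0.86 in the last against the first (standard error 0.47, adjusted p = 0.316). Stard4, which carries sterol between membranes, had 0, 25 and 0 counts in Normal, 15, 0 and 39 in NMO, and 6, 9 and 0 in NMO+CL. In 4 of the 9 libraries it was thus not detected, which allows up to 3 counts in each.

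The 2 LXR genes gave levels that differed in how well they could be measured. Nr1h2, which encodes LXR beta, was at 46.1, 56.7 and 40.7 CPM in Normal, 45.9, 44.4 and 34.1 CPM in NMO, and 36.3, 39.0 and 61.2 CPM in NMO+CL. These groups overlapped, and its log2 fold change of -0.07 in NMO+CL against Normal had a 95% interval from -0.67 to 0.53. Nr1h3, which encodes LXR alpha, had 0, 0 and 22 counts in Normal, 2, 0 and 35 in NMO, and 12, 0 and 19 in NMO+CL. A library without it stood in each group, and no difference was detected from these counts.

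Abca1, the transporter that loads cholesterol onto lipid-poor apolipoproteins, gave the narrowest intervals among the members with a role in efflux. It was at 309, 293 and 331 CPM in Normal, 347, 256 and 260 CPM in NMO, and 371, 297 and 307 CPM in NMO+CL. The groups overlapped in each comparison. Its log2 fold change was -0.11 in NMO against Normal (95% interval -0.50 to 0.28), 0.18 in NMO+CL against NMO (-0.21 to 0.57) and 0.06 in NMO+CL against Normal (-0.33 to 0.45), with adjusted p values by edgeR of 0.950, 0.785 and 0.914. The interval of the fellow transporter Abcg1 in that last comparison, -1.86 to -0.57, lay wholly below that of Abca1. The difference between the 2 genes was not itself tested.

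Mylip, an LXR target that marks lipoprotein receptors for breakdown, was at 267 to 356 CPM in Normal, 293 to 379 CPM in NMO and 198 to 306 CPM in NMO+CL. Its log2 fold change in NMO+CL against NMO was -0.43 (standard error 0.20, adjusted p = 0.386 by edgeR), and in NMO+CL against Normal it was -0.35 (adjusted p = 0.346). The highest NMO+CL library, replicate 1, lay within the range of both other groups.

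Among the 4 fatty acid genes, Fasn was the sole call. Scd1, which puts the double bond into stearate, was at 7.17, 10.7 and 4.54 CPM in Normal, 2.01, 2.27 and 3.20 CPM in NMO, and 2.92, 4.70 and 3.68 CPM in NMO+CL. Its NMO libraries were all below the Normal ones, but the log2 fold change of -1.58 had a standard error of 0.89 (adjusted p = 0.634 by edgeR). Scd2, the desaturase that predominates in brain, was at 48.8 to 96.6 CPM in Normal, 42.7 to 48.3 CPM in NMO and 26.7 to 62.4 CPM in NMO+CL. It did not overlap between Normal and NMO either, with a log2 fold change of -0.56 (standard error 0.32, adjusted p = 0.641). Lpcat3, which remodels phospholipids with polyunsaturated chains and is an LXR target, was at 237 to 280, 209 to 280 and 162 to 226 CPM. The NMO+CL libraries of Lpcat3 were below the Normal ones, with a log2 fold change of -0.35 (standard error 0.19, adjusted p = 0.321), and 334 bases of its 3′ end overlap Emg1 on the opposite strand.

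A further 36 genes of the same pathways that are not on the list were examined by counts, and 33 of them passed the filter. With all libraries and the filter, neither NMO against Normal nor NMO+CL against NMO called any of them by edgeR, and 6 and 8 of them had an unadjusted p under 0.05 (18.2% and 24.2% of the 33, against 9.51% and 12.4% of all genes). By limma-voom the count was likewise 0 in both, and by DESeq2 it was 0 in NMO against Normal and 1 in NMO+CL against NMO, where Lpin1 was called lower. By edgeR, Lpin1 was also called lower there with no filter on low counts (adjusted p = 0.0236) and without NMO+CL replicate 1 (0.0259), and Cyp27a1 with no filter (0.0292). Against Normal, NMO+CL had 3 called higher (9.09%) and 2 lower (6.06%), beside 4.79% and 4.43% of all genes, 8 had an unadjusted p under 0.05 (24.2%, against 22.3%), and the median log2 fold change of the 33 was 0.14. The counts called in that comparison were the same by limma-voom, and DESeq2 called 4 higher, with Plin2 added, and 2 lower.

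Acaca, which makes the malonyl-CoA that the product of Fasn uses, was at 5.58, 10.8 and 4.54 CPM in Normal, 13.3, 15.6 and 20.97 CPM in NMO, and 23.6, 26.9 and 27.7 CPM in NMO+CL. The libraries of the 3 groups did not overlap. Its log2 fold change was 1.89 in NMO+CL against Normal (standard error 0.45, adjusted p = 0.0112 by edgeR), and it was called in 15 of 17 settings, lost without Normal replicate 1 or 3 (up to 0.0683). Elovl1, an elongase of saturated long chains, was at 56.4 to 94.1 CPM in Normal, 79.4 to 153 CPM in NMO and 180 to 192 CPM in NMO+CL. With a log2 fold change of 1.33 in NMO+CL against Normal (adjusted p = 0.0023) it was called in 17 of 17 settings.

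Tmem97, a sterol-regulated membrane protein gene, was at 6.56 to 13.8 CPM in Normal, 18.7 to 32.2 CPM in NMO and 26.7 to 44.1 CPM in NMO+CL. It was called in NMO+CL against Normal (log2 fold change 1.86, adjusted p = 0.0071 by edgeR), and the call was lost without NMO+CL replicate 2 (0.0503). In the other direction, Cyp27a1, which hydroxylates the side chain of cholesterol, was at 34.2 to 64.3, 21.6 to 48.0 and 13.4 to 17.7 CPM, with a log2 fold change of -1.82 (adjusted p = 0.0033). Lpin1, a phosphatase of triglyceride synthesis and a coregulator of transcription, was at 70.8 to 82.2, 49.7 to 59.9 and 18.6 to 36.3 CPM, with a log2 fold change of -1.46 (adjusted p = 0.0023). Both were called in 17 of 17 settings in NMO+CL against Normal.

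**Figure D4:**
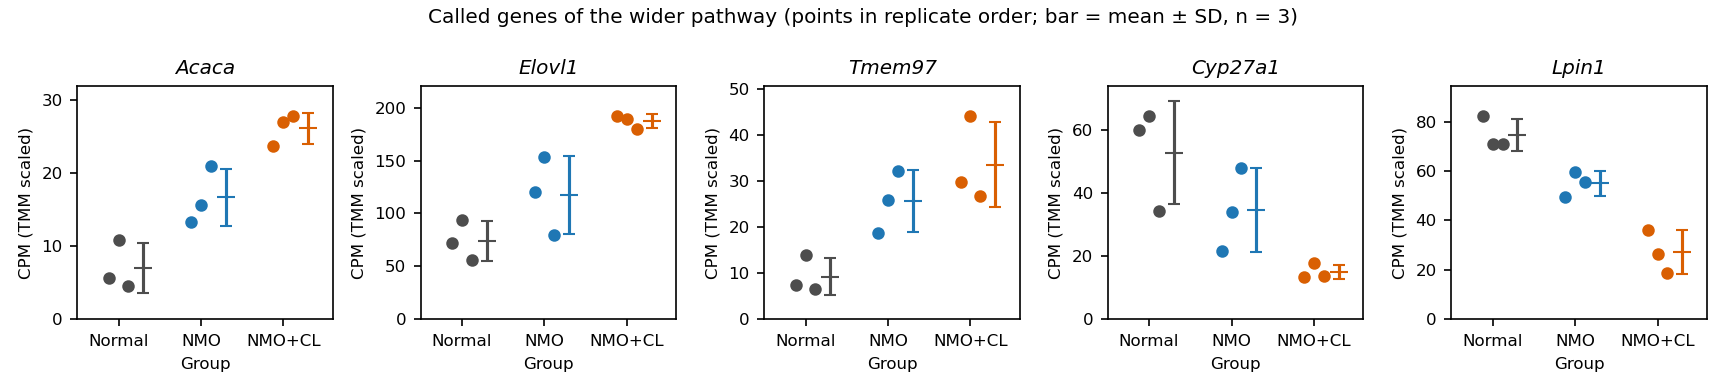
CPM (vertical axis, from 0) in each library of the 5 further pathway genes that were called in NMO+CL against Normal, by group along the horizontal axis. Points are single libraries and bars are the mean ± SD of 3. Acaca, Elovl1 and Tmem97 are higher and Cyp27a1 and Lpin1 lower in all 3 NMO+CL libraries than in all 3 Normal libraries, with the NMO libraries between or overlapping.

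Markers of the sorted cells and of other cells differed between the groups too. In NMO+CL against Normal 5 of the 8 microglia markers were called lower, and 2 of them, P2ry12 and Siglech, were also called lower in NMO+CL against NMO. Siglech was the sole one called lower in NMO against Normal. Oligodendrocyte markers summed to 137, 84.6 and 101.1 CPM in Normal, 73.0, 74.3 and 100 CPM in NMO, and 35.7, 51.8 and 68.9 CPM in NMO+CL, with Cnp called lower in NMO+CL against Normal. Astrocyte markers summed to 168 to 214, 103 to 133 and 84.6 to 127 CPM in Normal, NMO and NMO+CL. Most of each sum was Slc1a3, at 142 to 203, 89.5 to 122 and 66.8 to 123 CPM. Slc1a2 and Slc1a3 were called lower in NMO+CL against Normal. The log2 fold changes of Aqp4, Gja1 and Aldoc there were 0.59, 0.27 and -3.97, none of them called. Gfap and Aldh1l1 were at 0 in 8 libraries each. Oligodendrocytes and astrocytes express many sterol and fatty acid genes themselves, and sums over different marker lists do not measure the share of each cell type. The 6 border macrophage markers, none of them called, summed to 10.8 CPM in NMO replicate 2 and to 158 to 412 CPM in the other libraries. Most of this sum was Cbr2, at 0 CPM in NMO replicate 2 and 395 CPM in NMO+CL replicate 3, the library lowest in Abcg1 and lowest of its group in Soat1. In NMO+CL replicate 3 Mrc1 was at 7.85 CPM, the lowest of the 9, and Pf4 was at 0, as in NMO replicates 2 and 3. F13a1 was at 4.16 CPM in that library, above the Normal libraries (0.319 to 3.16 CPM). Lyve1 was at 4.96 CPM, below the Normal libraries (6.73 to 9.08 CPM) and above NMO+CL replicate 1 (4.38 CPM). Cd163 was at 0 in 7 libraries, this one among them. The neuronal sum was at 207 CPM in Normal replicate 1, of which Meg3 made up 170 CPM, and at 4.55 to 26.9 CPM elsewhere. Meg3 was called lower in NMO against Normal (log2 fold change -3.73, adjusted p = 0.0493 by edgeR). Without NMO+CL replicate 1, the library with the highest neutrophil sum, the log2 fold changes in NMO+CL against Normal were 0.94 for Soat1, 1.37 for Fasn and -1.52 for Abcg1 (adjusted p = 0.0352, 0.0113 and 0.0063 by edgeR). The call of Soat1 relative to NMO was lost without that library (adjusted p = 0.0870 by edgeR). Neutrophil sums in the other NMO+CL libraries were 258 and 487 CPM, beside 510, 36.9 and 42.6 CPM in Normal. The part of the other cells in the changes of Soat1, Fasn and Abcg1 was not tested.

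**Figure D5:**
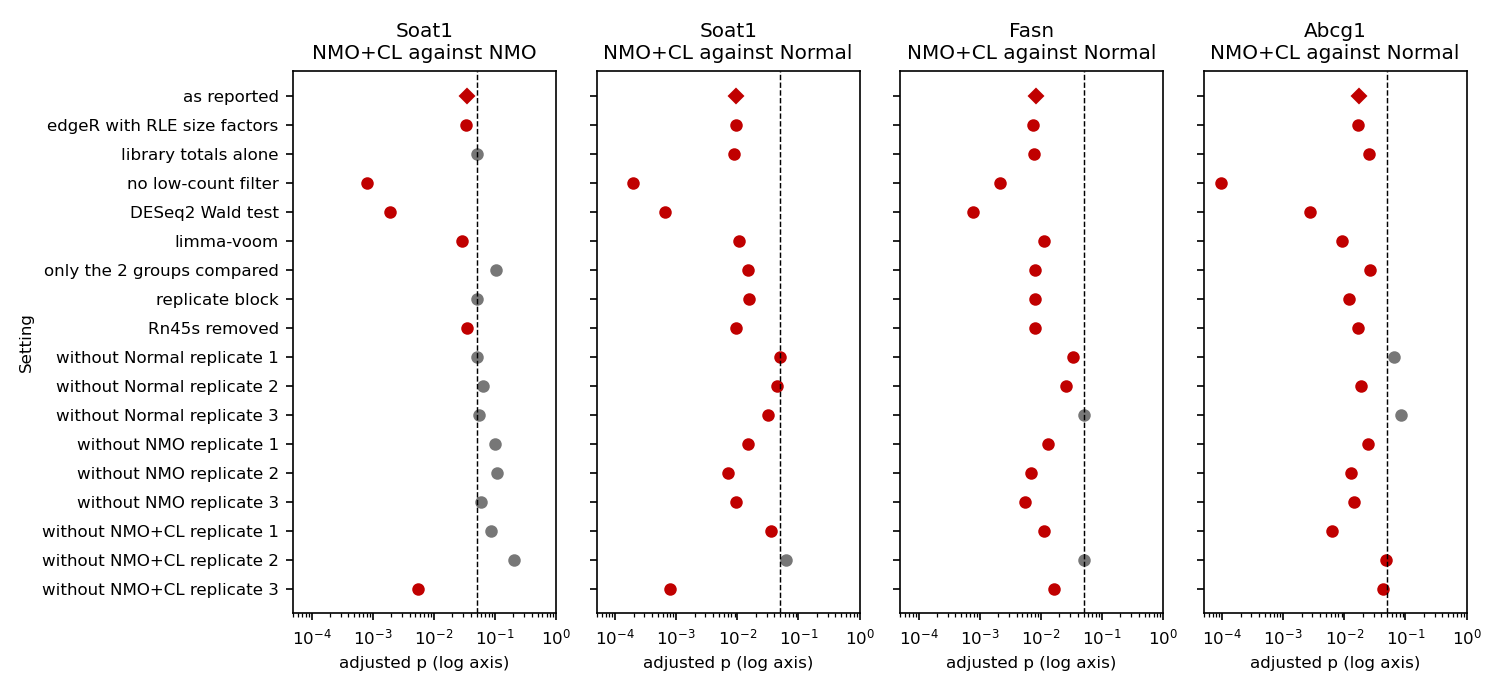
Adjusted p (horizontal axis, log scale) of the 4 calls among the members under each setting (vertical axis), with a diamond for the value as reported and a dashed line at 0.05. Red points are under the line and grey points are not. Soat1 in NMO+CL against NMO crosses the line in 11 of 17 alternatives, and the other 3 calls do so in 1 or 2.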

How the data were processed

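The authors prepared QuantSeq libraries from total RNA of sorted microglia with oligo-dT priming, sequenced them as single reads of 75 bases and aligned them with Bowtie2, and took read counts per gene with Bedtools. Reads with several alignments were kept, so a read may be counted at each copy of a gene. The submitters' processing notes name mm10, while the annotation and the use of strand are not given in the sources used here. The deposited values are these counts, not normalized.

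Entries with the same symbol (35 symbols on 79 of 23282 entries, no member) were summed. Genes were kept by filterByExpr (minimum count 10, minimum total 15). With edgeR 4.0.16 in R 4.3.3, a quasi-likelihood model with TMM factors and 1 coefficient per group was fitted to all 9 libraries, with two-sided tests and Benjamini-Hochberg adjustment over the 12292 genes of a contrast. The common biological coefficient of variation was 0.519. DESeq2 1.42.0 and limma-voom (limma 3.58.1) were alternatives, as were RLE factors, library totals, no filter, only the 2 groups compared, the replicate number as a block, removal of Rn45s, and leaving out each library. Of the symbols, 22197 were in GENCODE M21, whose coordinates are given and need not be those the authors used. The last 500 bases of each member were compared with BLAST 2.17.0.

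The study describes the 3 libraries of a group as independent pools. Pairs of replicates were far from sampling noise (chi-square of 23.2 to 55.5 for each degree of freedom), so none was taken as a repeat of another. Where a gene had no count in a library, the upper limit is 3 counts (95% confidence, for counting error alone).

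The members, the further pathway genes and the markers were chosen with earlier results of these data known. All members are named. CPM in every library is given for called members, for those with an unadjusted p under 0.05 and no overlap between the groups, and for Srebf1, Srebf2, Abca1, Abcg1, Nr1h2, Nr1h3, Fasn and Soat1. Some others are also given by library where a single library set their range. Further pathway genes are named where called.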

Additional observations from a re-analysis of the deposited data

How the results depend on the processing

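The number of members called in NMO against Normal was 0 in all 17 alternatives, in both directions. In NMO+CL against NMO the 1 member called higher was lost, leaving 0, with library totals alone, with only the 2 groups compared and with the replicate block, and without 1 library the count was 0 to 1. The number called lower in that comparison rose from 0 to 1 with no filter on low counts, by Abcg1. In NMO+CL against Normal the members called higher were 2 to 3 in the other settings and 0 to 3 without 1 library, where Acat2 was the gene added with no filter and without NMO+CL replicate 1, and those called lower were 1 in the other settings and 0 to 1 without 1 library. Same-numbered libraries were not paired, since nothing in the labels ties a number to a day or batch and the correlations of their deviations ran from -0.0148 to 0.0302. The replicate block changed no other call of a member. Over all genes the calls moved more: 61 in NMO against Normal became 34 with only the 2 groups compared, 96 with library totals, 222 by DESeq2 and 223 with no filter, and 20 to 75 without 1 library. The 196 calls in NMO+CL against NMO became 73 with only the 2 groups compared, 461 by DESeq2 and 496 with no filter, and 51 to 231 without 1 library, and the 1134 in NMO+CL against Normal became 649 to 1263 without 1 library. The cause of these differences was not tested. The calls of Soat1, Fasn, Abcg1, Acaca, Elovl1, Tmem97, Cyp27a1 and Lpin1 kept their sign in all 17 alternatives, and the marker genes were not compared across settings. For Idi1, Stard4 and Nr1h3, which had 0 counts in at least 1 library, the 95% intervals spanned several log2 units in each comparison.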

Other observations

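Among the further pathway genes, 2 that edgeR did not call are given here because of their values, and were chosen after these were seen. Ch25h, which makes an oxysterol that LXR can sense, had 0, 3 and 12 counts in Normal, 470, 272 and 6 in NMO, and 35, 0 and 21 in NMO+CL. NMO replicates 1 and 2 stood far above the other 7 libraries, while replicate 3 overlapped Normal, and the adjusted p in NMO against Normal was 0.106 by edgeR. Plin2, which coats lipid droplets, was at 12.7, 17.3 and 13.6 CPM in Normal, 20.2, 16.6 and 6.24 CPM in NMO, and 24.5, 47.8 and 42.8 CPM in NMO+CL. All 3 NMO+CL libraries were above the 6 others, as they were for Soat1, and the log2 fold changes were 1.40 against Normal (adjusted p = 0.0532 by edgeR) and 1.41 against NMO (adjusted p = 0.133). DESeq2 called Plin2 higher in NMO+CL against Normal.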
